A study of Bos taurus and Sus scrofa with 10 samples.

Results

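The linker histone and histone variants described here are 10 genes, H1FOO, H1F0, H2AFZ, H2AFV, H2AFX, H2AFY, H2AFY2, H3F3A, H3F3B and CENPA, followed through oocytes and preimplantation embryos of cow and pig. They were chosen by symbol, and every row of the 2 expression tables that carries one of these symbols was looked up. Of the 10 symbols, 9 had a row among the 22845 rows for cow and 8 had a row among the 21867 rows for pig, and 8 had one in both. The symbol H3F3B was in neither table and H2AFX was not in that of pig, so H2AFX was not analysed in pig. The symbol H3F3A stood on 2 rows per species, and the one counted as H3F3A in every count of members lies where the RefSeq cow annotation places H3F3B, as described with that gene. The other H3F3A row stayed out of those counts and was called at 1 step, in pig from the 2-4 cell to the 8-16 cell embryo.

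The series measured total RNA by sequencing in oocytes, 2-4 cell embryos, 8-16 cell embryos, morulae (compacted balls of cells) and blastocysts (embryos with a fluid cavity, an inner cell mass and an outer trophectoderm). Each stage of each species had 1 library, so there were 10 libraries, no replicate check and no test of any difference below. The labels give no breed, age of animal, culture condition or number of oocytes or embryos per library. The title places the libraries in a study of DNA methylation and species differences before implantation.

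Nucleosomes are built from core histones, most of which are made in bulk during DNA replication from clustered genes. Histone variants are encoded elsewhere, are made throughout the cell cycle and replace the bulk histones at particular places. Linker histones bind where DNA enters and leaves the nucleosome, and oocytes carry a linker histone of their own that is exchanged for somatic forms as the embryo develops.

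Levels are given in RPM, the reads of a row per 1000000 reads of its library. RPM is not divided by gene length, so levels are compared between stages of one gene. Where rows of several genes are summed or set against each other, the values are numbers of reads and say nothing of relative numbers of molecules. Brackets after a level hold its 95% Wilson interval, which covers counting error alone. Libraries were made from small inputs with amplification and PCR and without molecular identifiers, so reads are not independent molecules. A library holding 0 reads of a gene allows up to 3 reads, which was between 0.212 and 0.999 RPM depending on the library. In bulk samples such as these, fewer cells of a type and less RNA per cell cannot be told apart.

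Read totals lay between 3899291 and 14182046 in cow and between 3002751 and 4138616 in pig, with the cow blastocyst library the deepest. Mitochondrial rows took 2.74% to 30.2% of the reads in cow and 6.06% to 18.6% in pig, with the highest share in the blastocyst library of both species. The oocyte and blastocyst libraries carried their markers, and the labels of the stages between them were not checked. Of 12 oocyte markers with a row in cow, all 12 were at least 4-fold lower in the blastocyst than in the oocyte on the log2 scale defined in the next paragraph. In pig 10 of 11 were. Blastocyst markers went the other way for 10 of 11 rows in cow and 12 of 12 in pig. The summed level of 13 cumulus cell markers in cow was 551, 475, 113, 56.9 and 1005 RPM from oocyte to blastocyst. For 11 such markers in pig it was 179, 137, 216, 367 and 2158 RPM. PTGS2 alone held 902 RPM of the cow and 1809 RPM of the pig blastocyst sum. Without PTGS2 the sums of oocyte and blastocyst were 459 and 103 RPM in cow and 179 and 350 RPM in pig. In the cow blastocyst 6 of the 13 had reads and HAS2, PTX3, TNFAIP6, GREM1, AMH, FST and VCAN were at 0. The cow oocyte held 141 RPM of HAS2, 157 of STAR and 116 of VCAN. In the pig blastocyst 7 of the 11 had reads and PTX3, GREM1, INHBA and CYP11A1 were at 0. VCAN held 302 RPM of the pig blastocyst sum and 101 RPM of the pig oocyte sum. CYP19A1 stood at 2.64 RPM in the cow oocyte and 48.8 RPM in the cow blastocyst. The pig oocyte had 4.14 RPM of it and the pig blastocyst 20.4. By the same 4-fold rule 3 cow markers were higher in the blastocyst than in the oocyte and 4 lower. In pig 3 were higher and 2 lower. The part of cumulus RNA, of the mitochondrial share and of depth in the results below was not tested.

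A change between stages is the later minus the earlier value of log2(RPM + 1), a scale that understates changes of genes with few reads. A row was compared when it reached 1 RPM in one of both libraries and called higher or lower once its change reached 2 in size, a 4-fold difference of RPM + 1. A row under 1 RPM in one of both was compared only through the other, so its direction was set by this filter. That holds for members, for the gene lists and for all rows alike. Ratios are of plain RPM. The verbs rose and fell are used only of changes that were called.

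Few members were called at the first cleavages and most of the called changes in cow came between the 2-4 cell and the 8-16 cell embryo. From cow oocyte to 2-4 cell embryo 0 of 8 compared members were called, against a background of 0.196% of all compared rows called higher and 0.178% called lower. From the cow 2-4 cell to the 8-16 cell embryo 3 of 8 rose (H2AFZ, H2AFV and H2AFY), where 12.6% of all rows did, and H1FOO fell, where 14.6% of all rows did. The median change of the 8 members at that step was 1.75, beside -0.44 over all compared rows. From the cow 8-16 cell embryo to the morula H1FOO fell and no member of 8 rose, with 6.67% of all rows higher and 5.15% lower. H1FOO had 0 reads in the morula and was compared only through the 8-16 cell embryo, so its direction was set by the filter. From the cow morula to the blastocyst H2AFY2 rose and H1F0 fell among 8 compared members, with 11.9% of all rows higher and 11.5% lower. H2AFY2 had 0 reads in the morula and was compared only through the blastocyst, so its direction was set by the filter, and without it 0 of 7 rose. The median member change at that last step was -0.998, beside -0.11 over all rows.

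Over the whole interval from cow oocyte to blastocyst, 4 of 9 members rose (H2AFZ, H2AFY, H2AFY2 and CENPA) and H1FOO fell. Of all 12738 compared rows, 21.8% were called higher and 18.4% lower. The median member change was 1.78, beside 0.18 over all rows. H2AFY2 was compared only because of its blastocyst reads, so it had to be higher there. Without it 3 of 8 members rose and the median was 0.92. H1FOO had 0 reads in the blastocyst and was compared only through the oocyte, so it had to be lower.

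In pig the called changes were spread over all 4 steps. From oocyte to 2-4 cell embryo H2AFV fell and no member of 6 rose, with 3.26% of all rows higher and 2.17% lower. From the pig 2-4 cell to the 8-16 cell embryo H2AFZ rose and none of 6 fell, where 4.33% of all rows were higher and 0.543% lower. From the pig 8-16 cell embryo to the morula H2AFV rose and H1FOO fell among 7, with 12.0% of all rows higher and 11.3% lower. From the pig morula to the blastocyst H1FOO and CENPA fell and none of 7 rose, with 13.8% of all rows called in each direction. From pig oocyte to blastocyst H2AFZ rose and H1FOO and CENPA fell among 7 compared members, with 26.0% of all rows higher and 19.2% lower. The median member change over that interval was 0.94, beside 0.43 over all rows. H1FOO had 0 reads in the pig blastocyst, so the direction of its changes into that stage was set by the filter. The direction of H1F0 over the whole interval was set likewise, since it had 0 reads in the oocyte. Counts this small beside backgrounds this large describe the members only.

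The stage with the highest level also differed between the tables. In cow it was the 2-4 cell embryo for 2 members, the 8-16 cell embryo for 4, the morula for 2 and the blastocyst for 1. In pig it was the morula for 6 members, the oocyte for H1FOO and the 2-4 cell embryo for H2AFY2, which had 3 reads there. The highest and the next level had overlapping counting intervals for H2AFV, H2AFX, H2AFY and CENPA in cow and for H1F0, H2AFV, H2AFY2 and CENPA in pig.

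**Figure D1:**
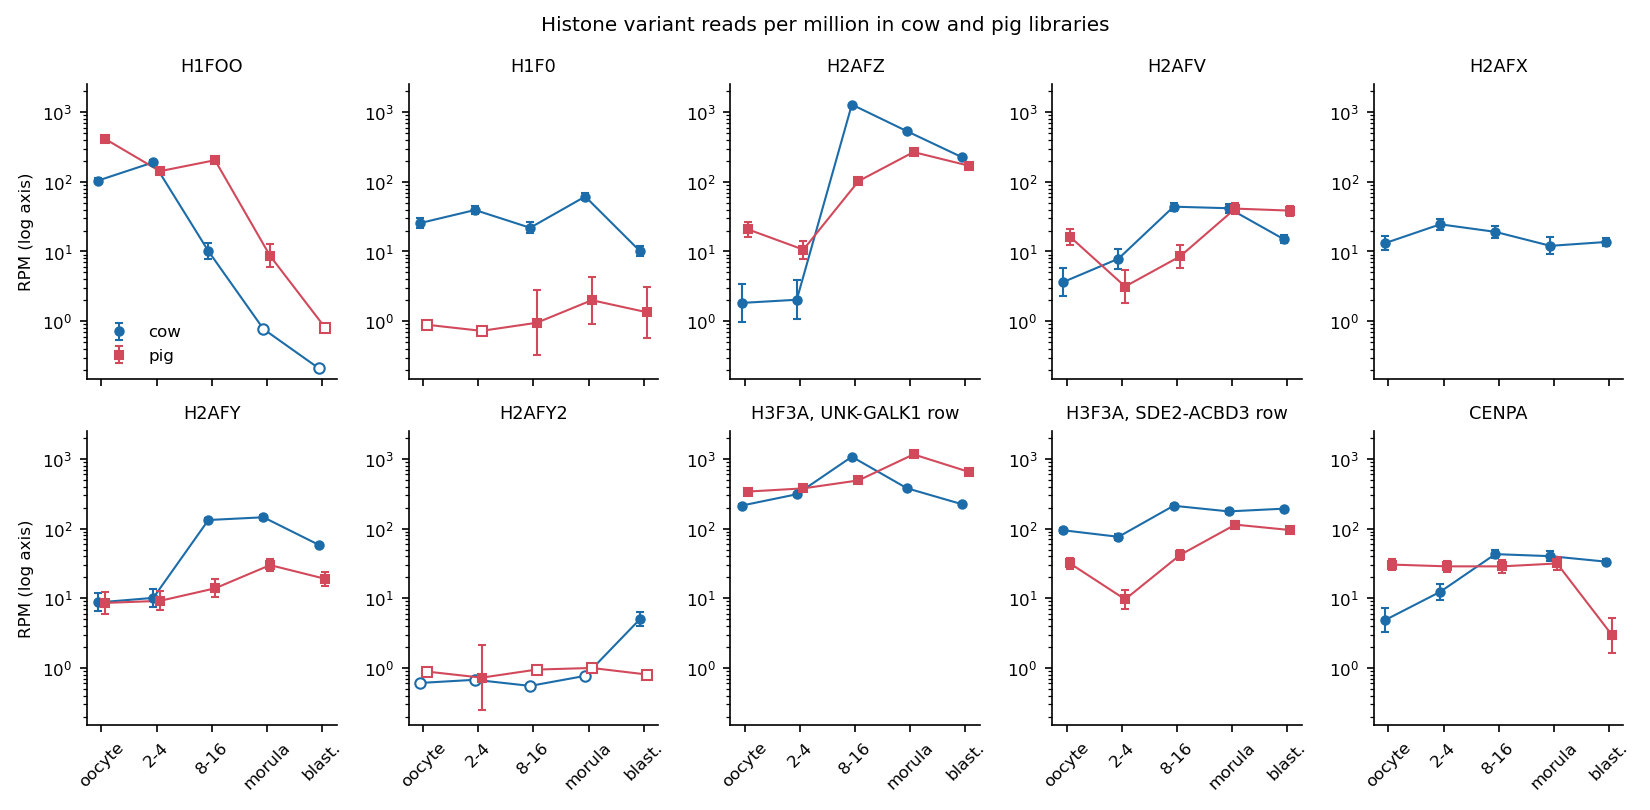
RPM (log axis) of each histone variant row at the 5 stages, cow in blue circles and pig in red squares, 1 library per point, bars the 95% Wilson counting interval; open symbols stand at the level of 3 reads where the library had 0 reads. H1FOO ended at 0 reads in both species, H2AFZ in cow stood at 1.83 and 2.03 RPM in the first 2 stages and at 1288 RPM in the 8-16 cell embryo, and CENPA in pig stood at 2.95 RPM in the blastocyst.

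**Figure D2:**
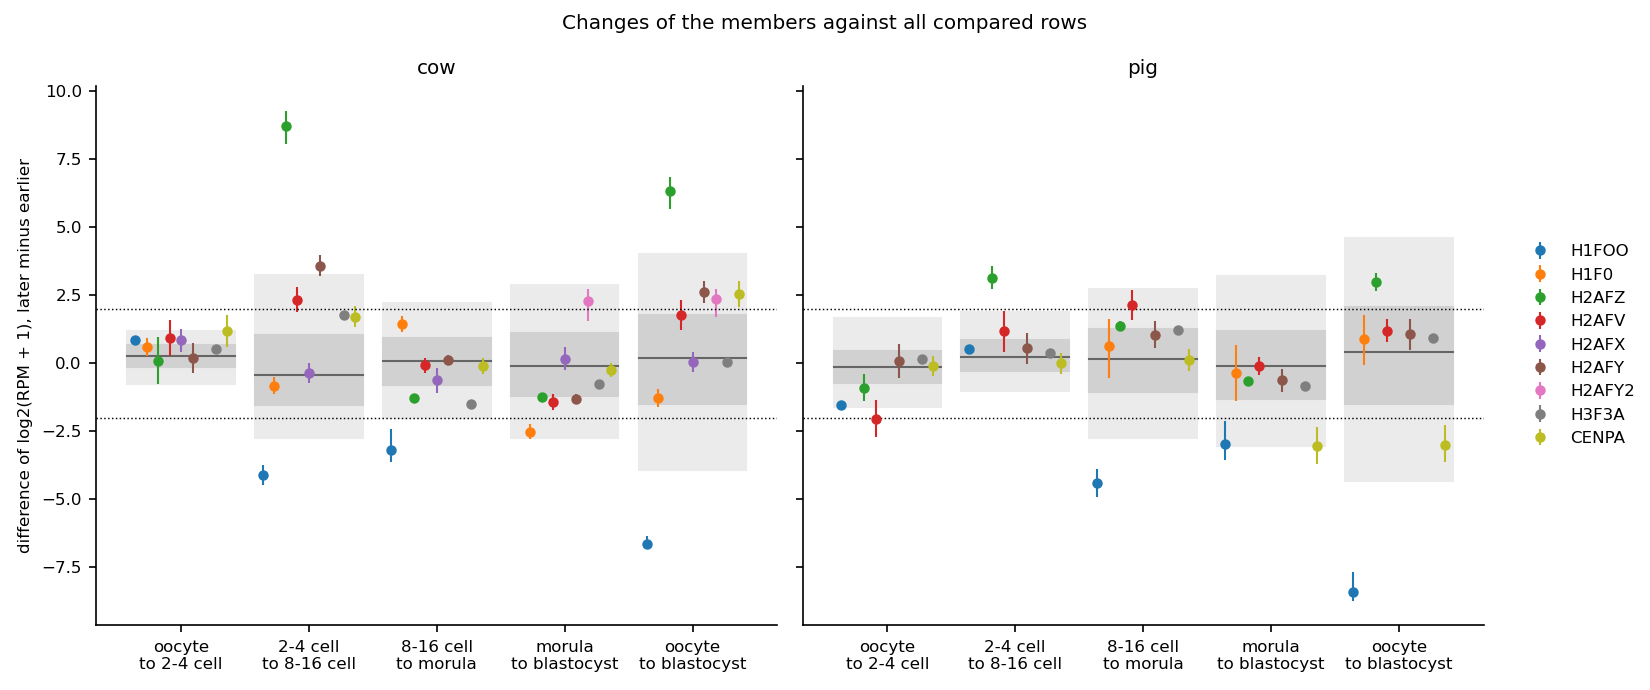
Change of log2(RPM + 1) of each compared member at each step and from oocyte to blastocyst, cow left and pig right, bars the counting interval. Grey boxes span the 5th to 95th (light) and 25th to 75th (dark) percentiles of all compared rows with a line at their median, and dotted lines mark a change of 2 in either direction. H2AFZ (8.73), H2AFY (3.59) and H1FOO (-4.11) lie outside the light box at the cow step from 2-4 cells to 8-16 cells.

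H1FOO encodes the oocyte linker histone. In cow its row on chromosome 22 (56829078 to 56860068, coordinates as the tables give them) held 104 RPM in the oocyte (95.8 to 114) and 191 RPM in the 2-4 cell embryo (178 to 204). It held 10.1 RPM in the 8-16 cell embryo (7.78 to 13.2) and 0 reads in the morula and the blastocyst, against floors of 0.769 and 0.212 RPM. The message was thus present up to the 2-4 cell embryo, sparse in the 8-16 cell embryo and not detected after it.

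The cow level in the 2-4 cell embryo was 1.82-fold that in the oocyte (1.63 to 2.04), which was not called. It then fell 18.8-fold (14.3 to 25.2) to the 8-16 cell embryo, a change of -4.11 (-4.46 to -3.74). Only 29 of the 12405 rows compared at that step had a larger fall. From there to the morula it was at least 13.2-fold lower. From oocyte to blastocyst it was at least 494-fold lower, a change of -6.63.

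In pig the H1FOO row lies on chromosome 13 (68921491 to 68942744). It held 416 RPM in the oocyte (395 to 438), 142 RPM in the 2-4 cell embryo (131 to 154) and 205 RPM in the 8-16 cell embryo (190 to 221). The morula had 26 reads, 8.66 RPM (5.91 to 12.7), and the blastocyst had 0 reads against a floor of 0.804 RPM. The pig message was therefore still high in the 8-16 cell embryo, where the cow message was already low, and none of the 5 pig levels had overlapping intervals.

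The first pig step, 2.92-fold lower (2.65 to 3.22), and the second, 1.44-fold higher (1.28 to 1.61), were not called. From the 8-16 cell embryo to the morula H1FOO fell 23.6-fold (16.0 to 36.5), a change of -4.41 (-4.91 to -3.90) that ranked 36 among the falls of 12746 compared rows. To the blastocyst it was at least 10.8-fold lower. Over the whole interval it was at least 517-fold lower, a change of -8.39 that ranked 21 among the falls of 12512 rows. H1FOO was the only one of the 8 members in both tables that was lower at the blastocyst in both. Among 8567 shared symbols compared in both species, 727 were. With 0 blastocyst reads in both species, H1FOO was compared only through the oocyte and could only be lower.

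H1F0 encodes the linker histone known from differentiated and resting cells. Its cow row (chromosome 5, 110122673 to 110124878) held 25.6 RPM in the oocyte, 39.4 in the 2-4 cell embryo, 21.9 in the 8-16 cell embryo, 61.5 in the morula (54.2 to 69.8) and 10.01 in the blastocyst (8.496 to 11.8). The morula level stood above the other 4 without overlap. The change into the morula was 1.45 (2.81-fold), which was not called, and from the morula to the blastocyst H1F0 fell 6.15-fold (4.97 to 7.62), a change of -2.51.

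In pig the H1F0 row (chromosome 5, 10040263 to 10040847) spans 585 bases, against 2206 in cow. It held 0, 0, 3, 6 and 5 reads from oocyte to blastocyst, the 6 in the morula being 2.00 RPM (0.916 to 4.36). Counting intervals of these levels overlap, so no order of stages can be read from them. Whether the shorter row misses reads of the gene was not tested.

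The remaining linker histone rows, found by symbol after values had been seen, are clustered genes that carry HIST1H1 names, H1FX, HILS1 in cow and H1FNT in pig. HILS1 and H1FNT had 0 reads in every library. The handling of reads that match several near-identical histone genes is not given in the sources used here, so the split between these rows is uncertain. Over 9 linker rows in cow the summed level was 970 RPM in the oocyte, 1493 in the 2-4 cell embryo, 369 in the 8-16 cell embryo, 181 in the morula and 63.8 in the blastocyst. H1FOO made up 10.8% of those reads in the cow oocyte, 12.8% in the 2-4 cell embryo and 2.75% in the 8-16 cell embryo. It was 0 of 707 and 0 of 905 linker reads in the last 2 stages, which allows shares of up to 0.424% and 0.331%. These shares are of reads and not of molecules, since RPM is not per length.

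HIST1H1A is a clustered linker histone gene. Its levels were 727, 1039, 210, 17.2 and 0.705 RPM from oocyte to blastocyst, a change of -8.74. HIST1H1C had 37.5, 67.6, 70.3, 81.0 and 20.7 RPM and its overall change was not called. In cow the HIST1H1A row therefore fell at both steps at which H1FOO fell, and at the last step too.

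In pig, over 6 linker rows, the summed level was 478, 188, 263, 314 and 120 RPM. These rows did not include HIST1H1A, HIST1H1C or HIST1H1E, which had no row in pig. The row sets thus differ, and shares are not compared between the species. H1FOO made up 87.1% of linker reads in the pig oocyte (85.3 to 88.6), 75.5% in the 2-4 cell embryo and 77.9% in the 8-16 cell embryo. Its share was 2.76% in the morula (1.89 to 4.01) and 0 of 449 reads in the blastocyst, which allows up to 0.668%. HIST1H1D had 60.7, 45.2, 52.1, 303 and 119 RPM, and rose from the 8-16 cell embryo to the morula, the step at which H1FOO fell. The pig HIST1H1D row, on chromosome 7 from 20862942 to 20882693, runs across other rows of the histone cluster and may hold reads of several genes. H1FX, a linker histone gene outside the cluster, had 0 reads in cow and 1 read in pig.

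**Figure D3:**
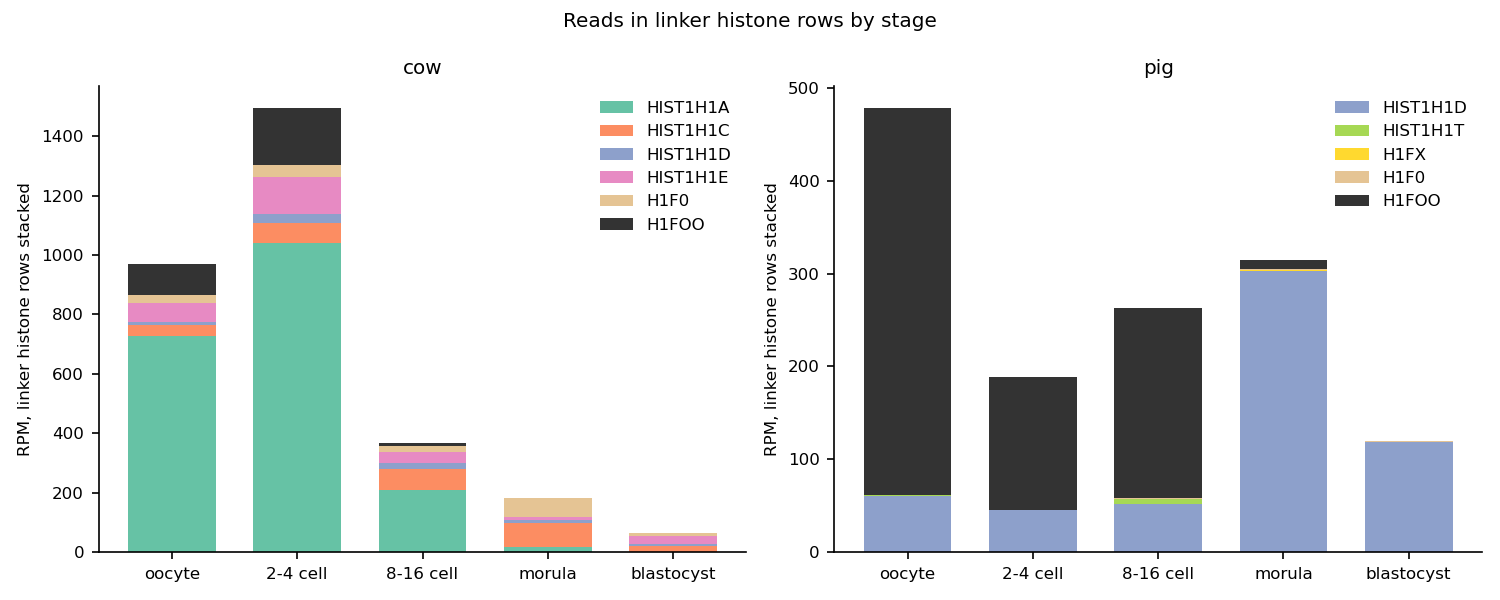
Stacked RPM of all rows with a linker histone symbol by stage, cow left and pig right on axes of different range, 1 library per bar. H1FOO (black) made up 10.8% of the cow oocyte bar and 87.1% of the pig oocyte bar, and the pig morula bar is mostly HIST1H1D. The row sets differ: HIST1H1A, at 727 RPM in the cow oocyte, had no row in pig, so these shares are not comparable.

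H2AFZ and H2AFV encode the 2 forms of H2A.Z, the H2A variant found at promoters and other regulatory sites. The cow H2AFZ row (chromosome 6, 26103022 to 26104344) had 9 reads in the oocyte, 1.83 RPM (0.960 to 3.47), and 9 in the 2-4 cell embryo, 2.03 RPM (1.07 to 3.85). The 8-16 cell embryo had 6995 reads, 1288 RPM (1258 to 1318), the morula 534 RPM (511 to 557) and the blastocyst 226 RPM (218 to 234). The early and late levels were orders of magnitude apart, and the 3 late levels did not overlap.

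From the 2-4 cell to the 8-16 cell embryo cow H2AFZ rose 635-fold (334 to 1389), a change of 8.73 (8.05 to 9.29). Only 3 of the 12405 rows compared had a larger rise. The changes of -1.27 and -1.24 at the next 2 steps were not called. From oocyte to blastocyst H2AFZ rose 124-fold (65.1 to 271), a change of 6.33 (5.66 to 6.86).

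The pig H2AFZ row (chromosome 8, 120563937 to 120567333) started from a higher count, with 70 reads in the oocyte, 20.7 RPM (16.4 to 26.2). It held 10.6 RPM in the 2-4 cell embryo (7.92 to 14.3), 102 in the 8-16 cell embryo (91.8 to 114), 268 in the morula (250 to 287) and 171 in the blastocyst (158 to 185). None of these intervals overlap. H2AFZ rose 9.63-fold (7.01 to 13.5) from the 2-4 cell to the 8-16 cell embryo, a change of 3.15 that ranked 64 among the rises of 12153 rows. A further change of 1.38 into the morula was not called.

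From pig oocyte to blastocyst H2AFZ rose 8.24-fold (6.43 to 10.7), a change of 2.98 (2.64 to 3.32). It was the only one of the 8 members in both tables that rose over this interval in both, as did 955 of 8567 shared symbols. The pig and cow tables were scaled separately, so the difference in size between the species was not tested.

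H2AFV had a smaller range over the stages than H2AFZ in both species. In cow (chromosome 4, 77389255 to 77401081) its levels were 3.65 RPM (2.31 to 5.77), 7.89 (5.67 to 10.97), 44.0 (38.8 to 49.9), 41.8 (35.9 to 48.7) and 15.02 (13.1 to 17.2). The 8-16 cell and morula levels overlap and stand above the others. H2AFV rose 5.58-fold (3.90 to 8.20) from the 2-4 cell to the 8-16 cell embryo, a change of 2.34. The overall cow change of 1.78 (1.21 to 2.31) was not called, but was 2.24 and called when reads were scaled to non-mitochondrial gene rows.

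In pig (chromosome 18, 50533429 to 50549298) H2AFV held 16.3 RPM in the oocyte (12.5 to 21.2), 3.14 in the 2-4 cell embryo (1.84 to 5.37, 13 reads), 8.53 in the 8-16 cell embryo (5.86 to 12.4), 41.3 in the morula (34.6 to 49.2) and 38.6 in the blastocyst (32.8 to 45.4). The 2-4 cell embryo had the lowest level and the last 2 stages the highest. The fall from the oocyte, -2.06 (-2.72 to -1.34), lay near the threshold and was between -1.98 and -1.84, not called, under all 3 other scalings. The rise into the morula, 2.15 (1.60 to 2.69), became 1.956 and was not called under median-of-ratios scaling. The pig row lies inside ENSSSCG00000040167, a row on the opposite strand with 140, 131, 127, 282 and 519 RPM. Use of strand in counting is not given in the sources used here, so reads of the pair may not be told apart.

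Within the H2A.Z pair H2AFZ held a larger share of the reads from the 8-16 cell embryo onward than in the oocyte, in both species. H2AFZ made up 33.3% of the reads of both rows in the cow oocyte (18.6 to 52.2) and 20.5% in the 2-4 cell embryo (11.2 to 34.5). It then made up 96.7%, 92.7% and 93.8% in the 8-16 cell embryo, morula and blastocyst. In pig the share was 56.0% in the oocyte (47.2 to 64.4), 77.2%, 92.3%, 86.6% and 81.6%. Shares depend on row length, so only their movement between stages is described.

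H2AFX encodes the H2A variant that is phosphorylated at DNA breaks. It had a row in cow only (chromosome 15, 30202578 to 30203886), with 13.2, 24.6, 19.1, 12.1 and 13.7 RPM from oocyte to blastocyst. All 5 levels lay between 12.1 and 24.6 RPM and no change was called. The overall change was 0.05 (-0.33 to 0.42), and it was -0.30 after quantile normalisation.

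H2AFY and H2AFY2 encode macroH2A1 and macroH2A2, large H2A variants associated with silent chromatin such as the inactive X chromosome. Cow H2AFY (chromosome 7, 48390758 to 48472188) had 8.72 RPM in the oocyte (6.48 to 11.7), 10.1 in the 2-4 cell embryo (7.58 to 13.6), 133 in the 8-16 cell embryo (124 to 143), 146 in the morula (134 to 158) and 58.7 in the blastocyst (54.9 to 62.9). The first 2 levels overlap each other, as do the 8-16 cell and morula levels. H2AFY rose 13.1-fold (9.71 to 18.2) from the 2-4 cell to the 8-16 cell embryo, a change of 3.59, and 6.73-fold (4.96 to 9.38) from oocyte to blastocyst, a change of 2.62.

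Pig H2AFY (chromosome 2, 137532030 to 137623909) had 8.59, 9.18, 13.9, 29.97 and 19.04 RPM, with 24.4 to 36.8 as the interval in the morula. The morula level was the highest and overlapped none of the others. None of the 4 steps was called, and the overall change was 1.06 (0.49 to 1.62), a ratio of 2.22.

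Cow H2AFY2 (chromosome 28, 26451331 to 26504095) had 0 reads in the first 4 libraries and 72 reads in the blastocyst, 5.08 RPM (4.03 to 6.39). The blastocyst library is also the deepest. Against the morula floor of 0.769 RPM the level was at least 6.60-fold higher, and against the oocyte floor at least 8.34-fold higher. In pig (chromosome 14, 73002572 to 73055557) H2AFY2 had 3 reads in the 2-4 cell embryo and 0 in the other 4 libraries. The pig blastocyst floor of 0.804 RPM is below the cow blastocyst level. The pig row overlaps AIFM2 on the opposite strand, which had 0 reads in the first 3 libraries, 2 in the morula and 3 in the blastocyst.

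H3F3A and H3F3B are separate genes for the same protein, the H3 variant H3.3, which is placed on chromatin outside of replication. The symbol H3F3A stood on 2 rows in each species. The row used by rule, the one with the higher mean, lies between UNK and GALK1 on cow chromosome 19 (56453856 to 56455637) and pig chromosome 12 (5631686 to 5635794). The other lies between SDE2 and ACBD3 on cow chromosome 16 (29832591 to 29840787) and pig chromosome 10 (13939843 to 13948506). In the RefSeq annotation of cow assembly ARS-UCD2.0 the gene between UNK and GALK1 is H3-3B and the gene between SDE2 and ACBD3 is H3-3A, the current names of H3F3B and H3F3A. The rows are therefore named here by their neighbours.

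The UNK-GALK1 row in cow held 214 RPM in the oocyte (202 to 228), 312 in the 2-4 cell embryo (296 to 329), 1079 in the 8-16 cell embryo (1051 to 1107), 380 in the morula (361 to 400) and 224 in the blastocyst (217 to 232). The 8-16 cell embryo stood above all the others, and oocyte and blastocyst overlap. The change into the 8-16 cell embryo was 1.79 (1.70 to 1.87), a ratio of 3.46, which was not called. It was 2.01 when scaled to non-mitochondrial gene rows and 2.14 under median-of-ratios scaling, both called. The overall change was 0.06 (-0.04 to 0.16).

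The SDE2-ACBD3 row in cow held 94.7, 76.4, 213, 177 and 194 RPM. From the 8-16 cell embryo onward it lay between 177 and 213 RPM, with an overall change of 1.02 (0.88 to 1.16) that was not called. The UNK-GALK1 row thus made up 69.4% of the reads of both in the cow oocyte (67.0 to 71.6), 80.3% in the 2-4 cell embryo, 83.5% in the 8-16 cell embryo (82.6 to 84.3), 68.2% in the morula and 53.7% in the blastocyst (52.4 to 54.9).

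In pig the UNK-GALK1 row held 341 RPM in the oocyte (322 to 361), 379 in the 2-4 cell embryo (361 to 398), 493 in the 8-16 cell embryo (469 to 518), 1165 in the morula (1127 to 1205) and 655 in the blastocyst (630 to 682). The morula was the highest stage, 1 stage later than in cow. No step was called, and the overall change was 0.94 (0.84 to 1.04). The SDE2-ACBD3 row held 31.7, 9.67, 42.01, 114 and 95.4 RPM and rose from the 2-4 cell to the 8-16 cell embryo by 2.01 (1.54 to 2.48), a value at the threshold. The UNK-GALK1 share of both rows stayed between 87.3% and 97.5% in the pig libraries.

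**Figure D4:**
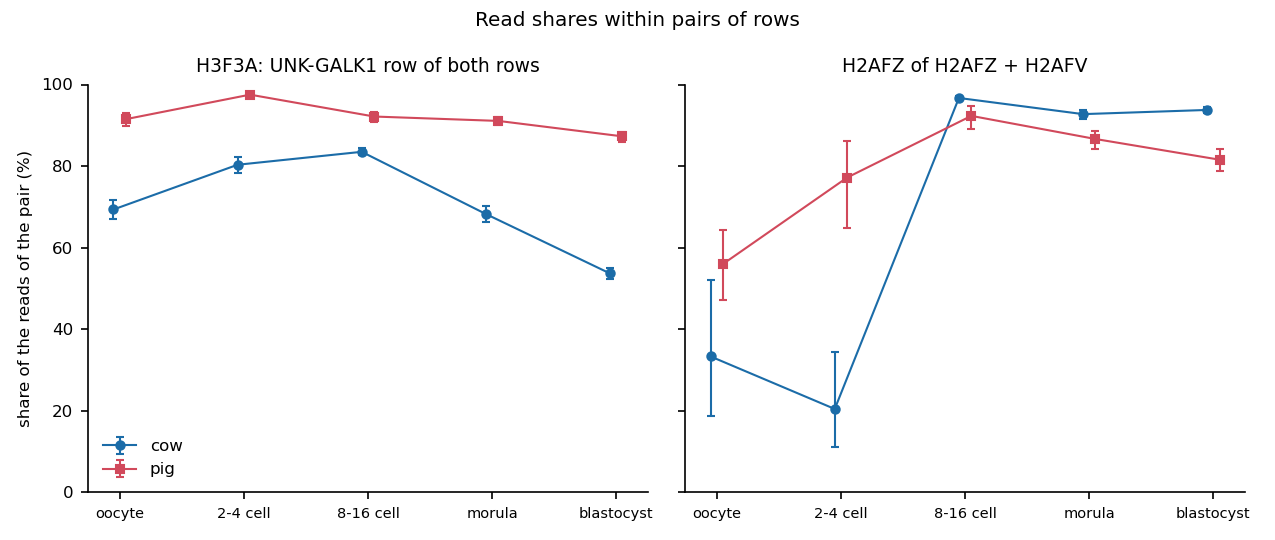
Share of reads (%) taken by the first row of a pair by stage, bars the 95% Wilson interval, cow blue circles and pig red squares. Left, the UNK-GALK1 row of both H3F3A rows, which went from 83.5% in the cow 8-16 cell embryo to 53.7% in the cow blastocyst; right, H2AFZ of H2AFZ and H2AFV, which went from 20.5% in the cow 2-4 cell embryo to 96.7% in the 8-16 cell embryo.

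CENPA encodes the H3 variant that marks centromeres, and it went in opposite directions in the 2 species. In cow (chromosome 11, 72781247 to 72787461) it held 4.87 RPM in the oocyte (3.27 to 7.24), 12.4 in the 2-4 cell embryo (9.52 to 16.1), 43.1 in the 8-16 cell embryo (37.9 to 49.0), 40.3 in the morula (34.4 to 47.1) and 33.6 in the blastocyst (30.7 to 36.8). The first 2 levels were low and distinct, and the other 3 were high, with the morula interval overlapping both its neighbours. CENPA rose 6.91-fold (4.59 to 10.9) from oocyte to blastocyst, a change of 2.56 (2.05 to 3.04). No single cow step was called, the largest being 1.72 into the 8-16 cell embryo, which was 2.05 and called under median-of-ratios scaling.

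In pig (chromosome 3, 112263664 to 112272682) CENPA held 30.5 RPM in the oocyte (25.1 to 37.0), 28.8 in the 2-4 cell embryo (24.0 to 34.4), 28.7 in the 8-16 cell embryo (23.4 to 35.3) and 31.6 in the morula (25.9 to 38.7). The blastocyst had 11 reads, 2.95 RPM (1.65 to 5.28). The first 4 levels overlap and the blastocyst stands below all of them. From morula to blastocyst CENPA fell 10.7-fold (5.73 to 22.2), a change of -3.05 (-3.69 to -2.32), and from the oocyte it fell 10.3-fold, a change of -3.00 (-3.63 to -2.27). Of the 8 members in both tables it was the only one called in opposite directions, as were 260 of 8567 shared symbols. The difference between the species was not tested.

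HJURP, the chaperone that delivers CENP-A to centromeres, was lowest in the pig library in which CENPA was lowest. It held 22.8, 19.3, 13.9 and 5.99 RPM and then 0 reads in the pig blastocyst, a change of -4.26 from the oocyte and at least 28.3-fold lower. In cow HJURP held 16.6, 28.2, 33.5, 30.5 and 33.8 RPM, a change of 0.98 that was not called. MIS18A, a further factor for loading CENP-A that was picked out after its values had been seen, fell in pig by 2.13, with 48.0 RPM in the oocyte and 10.2 in the blastocyst. The cow oocyte had 11.8 RPM of MIS18A and the cow blastocyst 25.3, a change of 1.04 that was not called.

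Histone chaperones and deposition factors moved in both directions. Of 39 compared rows from cow oocyte to blastocyst, 2 rose and 7 fell, with a median change of -0.25 beside 0.18 over all rows, of which 21.8% rose and 18.4% fell. Of 34 in pig, 5 rose and 5 fell, with a median of -0.52 beside 0.43 over all rows, of which 26.0% rose and 19.2% fell. In pig ZNHIT1 was compared only through the blastocyst, and HJURP and NPM2 only through the oocyte, as was NPM2 in cow. The directions of these factors were set by the filter. RUVBL1, a helicase shared by the complexes that exchange H2A.Z, rose in both. It had 4.46 RPM in the cow oocyte and 24.7 in the cow blastocyst, and 36.4 and 178 RPM in those of pig. NPM2, the oocyte chaperone nucleoplasmin, stood at 76.1 RPM in the cow oocyte and 34.9 RPM in the pig oocyte and at 0 reads in both blastocysts, at least 360-fold and 43.4-fold lower. ASF1B, an H3-H4 chaperone, fell 13.0-fold in cow (91.5 RPM in the oocyte) and 10.9-fold in pig (52.7 RPM in the oocyte). No factor of the 35 with a row in both tables was called in opposite directions, where 260 of 8567 shared symbols were.

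Other large changes among these factors were called in 1 species. ASF1A, the paralog of ASF1B, fell by 3.65 in cow, with 448 RPM in the oocyte and 34.7 in the blastocyst. Its pig change of -1.96 lay just short of the threshold. UBN1, a subunit of the HIRA complex that deposits H3.3, fell 7.82-fold in cow (102 RPM in the oocyte), a change of -2.87, and had a change of -0.15 in pig. HIRA itself, picked out after its values had been seen, rose in cow from 8 to 139 reads (1.62 and 9.80 RPM), a change of 2.04 just past the threshold. HIRA had no row in pig and could not be called there. ZNHIT1, a subunit of the SRCAP complex that inserts H2A.Z, went from 0 reads to 40.5 RPM in pig, at least 45.6-fold higher, and from 0 reads to 2.33 RPM in cow, which was not called. With 0 oocyte reads it could only be higher in either species. NAP1L1, an H2A-H2B chaperone, rose 10.8-fold in pig (42.04 RPM in the oocyte), a change of 3.41, and had a change of 1.52 in cow. Whether these changes differ between the species was not tested.

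**Figure D5:**
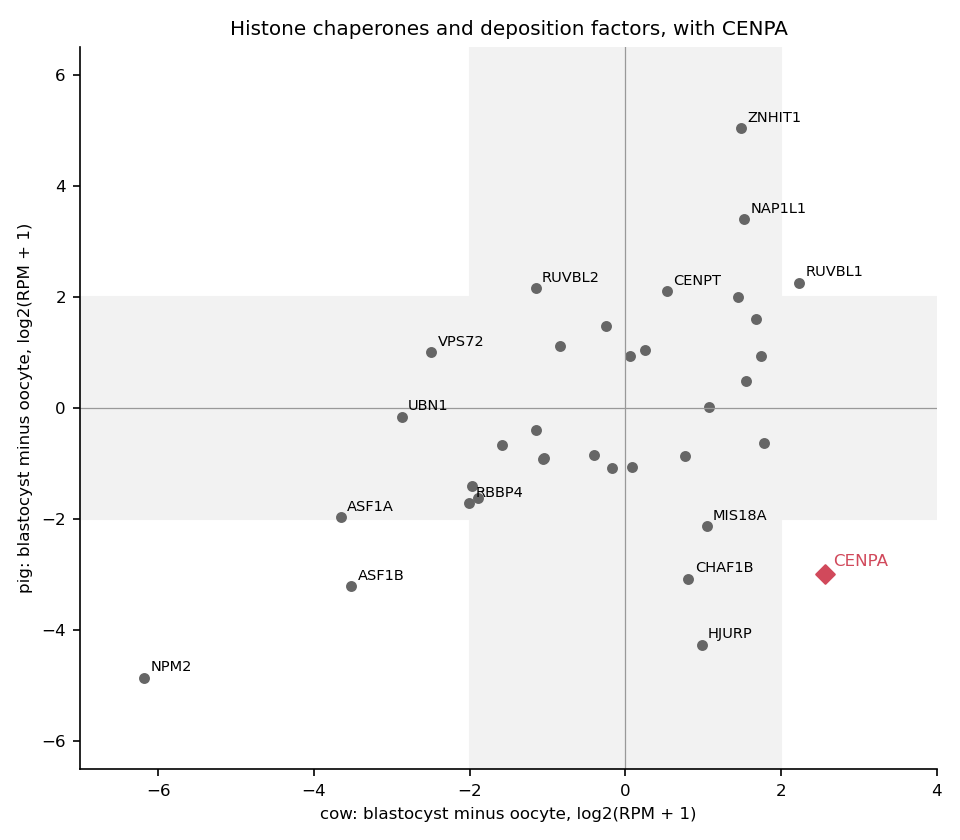
Change of log2(RPM + 1) from oocyte to blastocyst in cow (x axis) and pig (y axis) for the 34 chaperones and deposition factors compared in both species, with CENPA as a red diamond. Grey bands mark changes under 2 and labels mark the factors called in at least 1 species. NPM2 and ASF1B lie low in both, RUVBL1 lies high in both, and CENPA lies at 2.56 in cow and -3.00 in pig, a corner that holds none of the factors.

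Messages of replication histones lack a poly(A) tail and are handled by their own factors, of which 11 had a row in cow and 10 in pig. From oocyte to blastocyst 0 rose and 2 fell in cow, with a median of -0.70, and 2 rose and 4 fell in pig, with a median of -1.27. Over all rows the medians were 0.18 and 0.43, with 21.8% higher and 18.4% lower in cow and 26.0% and 19.2% in pig. SLBP2, an oocyte stem-loop binding protein, had 623, 713, 59.1, 6.15 and 0.282 RPM in cow (-8.93). SLBP, which binds the stem-loop of histone messages, had 124 RPM in the cow oocyte and 34.6 in the blastocyst, and its change of -1.81 was not called. In pig SLBP fell, with 468 RPM in the oocyte and 100.3 in the blastocyst, a change of -2.21. CASP8AP2, needed for histone gene expression, fell 15.0-fold in cow (433 RPM in the oocyte) and 15.6-fold in pig (846 RPM in the oocyte). In pig LSM11, part of the U7 particle that cuts histone messages, went from 35.5 RPM to 1 read. LSM11 in pig and SLBP2 in cow were compared only through the oocyte, so their directions were set by the filter. CSTF2, a cleavage factor, rose in pig 13.8-fold, with 3.26 RPM in the oocyte.

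Rows of other histone genes moved in both directions. Of 18 compared in cow from oocyte to blastocyst, 2 rose and 3 fell, with a median of -0.94, and of 13 in pig 3 rose and 1 fell, with a median of 0.71. These counts stand beside the same shares and medians over all rows, 21.8% higher and 18.4% lower in cow (0.18) and 26.0% and 19.2% in pig (0.43). Both cow rises, HIST2H2AC and HIST1H2BI, and the pig rises of H2AFJ and HIST2H2AC were compared only through the blastocyst. Cow HIST1H1A and pig HIST1H2BA were compared only through the oocyte. The directions of these rows were set by the filter. HIST2H2AB fell in cow from 19.5 to 1.34 RPM, and 1 of 2 rows named HIST2H2AC went from 1 read to 9.10 RPM. The other HIST2H2AC row went from 15 reads (3.04 RPM) to 0 reads, a change of -1.93 that was not called. H2AFJ, an H2A variant gene, went from 0 reads in the first 4 pig libraries to 33.8 RPM in the blastocyst, at least 38.0-fold higher. HIST1H2BA, a germ cell H2B gene, went in pig from 12.1 RPM to 0 reads. Reads of such near-identical genes may be split between rows, so these values are uncertain.

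Genes whose levels followed each member most closely were found among 13251 shared symbols, by the distance between profiles of log2(RPM + 1) over all 10 libraries, centred in each species. For H1FOO they were WIF1 at a distance of 1.83, SAXO1 at 1.95 and CDO1 at 2.07, where the median symbol lay at 10.1. The WIF1 levels in pig were 555, 189, 208, 32.3 and 0 RPM. For H2AFZ they were TFAP2C at 1.63, TAF1D at 2.18 and TRA2B at 2.60, with the median symbol at 9.32. TFAP2C had 0 reads in the cow oocyte and 2-4 cell embryo and 232 RPM in the 8-16 cell embryo, the step at which cow H2AFZ rose.

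The nearest to H2AFY was MGA at 0.782, ahead of CPSF6 and TIAL1, with the median symbol at 4.56. For H2AFV the nearest were HNRNPR and FAR1, both at 1.34, and MAGT1 at 1.37, with the median symbol at 4.48. The nearest to the UNK-GALK1 row of H3F3A were IBA57 at 0.887, CHD8 at 0.998 and TTI1 at 1.01, with the median at 3.45, though IBA57 stayed at or under 2.997 RPM. CENPA was followed most closely by ZNF432 at 1.03, NLN at 1.38 and XDH at 1.59, with the median symbol at 4.50. ZNF432 and XDH had 0 reads in the pig blastocyst. These distances describe 10 libraries whose levels share their depth and scaling.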

How the data were processed

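RNA sequencing of total RNA gave 10 libraries, 1 per stage in cow and pig. Per the submitters' processing notes, Trim Galore 0.6.4 and HISAT2 2.1.0 were used and the assemblies UMD3.1 and Sscrofa11.1 are named, without their roles. The counting tool, annotation and handling of strand, duplicates and multiple matches are not given in the sources used here. The deposited values are log2 RPM, per the file headers and the values: at least 99.97% were whole reads within 0.02 of a read, and 0 reads were written as 0.9 of a read. Reads were recovered from them, and the deposited values were used for changes, with a pseudocount of 1 RPM, a minimum of 1 RPM in one library and a threshold of 2. Of a repeated symbol the row with the highest mean was used. Intervals are 95% Wilson intervals for levels and shares, bounds combined from these for changes, and exact binomial ones for ratios. With 1 library per group no test was possible. Steps were tested on simulated data. The members and gene lists were chosen with earlier results of these data known. Named genes were all members, the chaperones called alike in both species or among the 4 largest changes in one, the 3 largest changes of the other 2 lists, and the 3 nearest profiles of members reaching 10 RPM in both species. Python 3.11.15, numpy 2.4.6, pandas 2.3.3, scipy 1.17.1 and matplotlib 3.10.9 were used.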

Additional observations from a re-analysis of the deposited data

Results flagged for a closer look

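CENPA changed in opposite directions between oocyte and blastocyst in the 2 species, by 2.56 on the log2(RPM + 1) scale in cow and by -3.00 in pig. HIST1H2AC, a clustered H2A gene, went the other way round, with -2.39 in cow (74.2 to 13.3 RPM) and 4.31 in pig (5.33 to 125 RPM). The pig HIST1H2AC row spans chromosome 7 from 20789769 to 20867386 and so crosses neighbouring histone rows. Each contrast rests on 1 library per stage and species, and the difference between the species was not tested.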

How the results depend on the processing

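No paired analysis was possible because each group had 1 library. Over 8 alternative settings, 1 of them added after seeing the data (0 reads taken as 0 RPM), the 74 member changes gave 588 values, of which 0 reversed a called change, 55 lay outside the counting interval of the value reported and 533 inside it. A threshold of 1 in place of 2 changed the number of called members from 0 to 1 for cow oocyte to 2-4 cell, from 1 to 4 for cow 8-16 cell to morula, from 2 to 5 for cow morula to blastocyst, from 1 to 2 for pig oocyte to 2-4 cell and for pig 2-4 cell to 8-16 cell, from 2 to 5 for pig 8-16 cell to morula and from 3 to 5 for pig oocyte to blastocyst. It also changed cow 2-4 cell to 8-16 cell from 4 to 6, as median of ratios did, and cow oocyte to blastocyst from 5 to 7. Over all cow rows that threshold called 1343 of 11226, 7801 of 12405, 5180 of 12334 and 7199 of 12653 at the 4 steps. In pig it called 3101 of 11362, 3086 of 12153, 7189 of 12746 and 7518 of 12567. From oocyte to blastocyst it called 8973 of 12738 rows in cow and 9075 of 12512 in pig. Without H2AFY2, left out after seeing the data, 1 member was called for cow morula to blastocyst and 4 for cow oocyte to blastocyst. The pig count for oocyte to 2-4 cell was 0 under scaling to non-mitochondrial gene rows, median of ratios and quantile normalisation, where H2AFV was at -1.98, -1.87 and -1.84. The pig count for 8-16 cell to morula was 1 under median of ratios, where H2AFV was at 1.956. Scaling moved the median of all rows, for cow oocyte to blastocyst from 0.18 to 0.59 with non-mitochondrial rows and to -0.02 with quantile normalisation. Uncalled changes of H2AFZ, H2AFY, H2AFX and CENPA in cow, and of CENPA in pig before the blastocyst, changed sign under at least 1 scaling. H1F0 and H2AFY2 in pig had at most 6 and 3 reads per library, and the part of depth in this was not tested.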
